A study of Bos taurus with 38 samples.

Results

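The genes described here are the growth factors an oocyte exchanges with its cumulus cells and the receptors that read them, namely GDF9, BMP15 and KITLG as ligands and BMPR2, BMPR1B, TGFBR1 and KIT as receptors. They were chosen by name, 7 genes of the 27607 Ensembl genes in the count tables. The tables hold identifiers without symbols, and 2 of the 7 could be matched to one: BMPR1B (ENSBTAG00000002081) and KIT (ENSBTAG00000002699). The other 5 were not analysed here, so the values below are those of both matched receptors and of genes that act in the same pathways.

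GDF9 and BMP15 are made by the oocyte and belong to the transforming growth factor beta family. Ligands of that family bring together a type II receptor, such as BMPR2, and a type I receptor, such as BMPR1B or TGFBR1, which then phosphorylates SMAD proteins that enter the nucleus. BMPR1B, also called ALK6, is a type I receptor of the BMP branch, and a change in its coding sequence raises ovulation rate in Booroola sheep. KIT is a receptor tyrosine kinase on the oocyte surface, and its ligand KITLG comes from the granulosa cells around it; the pair is known for its part in the activation and growth of the follicle.

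Cumulus-oocyte complexes drawn from antral follicles of abattoir ovaries of cattle (Bos taurus) were stained with brilliant cresyl blue (BCB), a dye that glucose-6-phosphate dehydrogenase reduces to a colourless form. BCB positive oocytes kept the dye and are taken as fully grown, whereas BCB negative oocytes lost it and are taken as still growing. RNA was sequenced from 9 BCB positive and 10 BCB negative oocytes and, in a separate library for each, from the cumulus cells of the same complex, giving 38 libraries with no treatment beyond the dye. Breed, age and donor animal are not given in the sources used here. If complexes shared an animal, the p-values below measure only the spread between these complexes.

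Oocyte libraries totalled 8886070 to 29810354 counts, and cumulus libraries 1103200 to 10430148. The median cumulus total was 5853816 counts in the BCB positive class and 2252271 in the BCB negative class. Transcripts of the 13 protein-coding mitochondrial genes took 1.66% ± 0.70 (SD, n = 9) of counts in BCB positive and 8.24% ± 5.01 (SD, n = 10) in BCB negative cumulus libraries. Complex numbers fell into 3 runs that the labels do not explain: 6 to 24 held 3 BCB positive and 1 BCB negative complexes, 65 to 74 held 6 and 3, and 86 to 91 held 6 BCB negative complexes and no positive one.

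The labelled compartments were checked with marker genes. ZP2 and ZP3, which encode proteins of the oocyte's coat, had medians of 1904 and 1691 CPM (counts scaled to a common library total of 1000000) in oocytes and of 0.171 and 0.377 CPM in cumulus cells. Of the 9 cumulus and granulosa markers, 8 were lower in oocytes, with log2 fold changes of −8.27 for FSHR, −4.52 for CYP19A1, −7.15 for FOXL2, −7.94 for HSD17B1, −7.89 for CYP11A1, −4.98 for GJA1, −6.18 for VCAN and −9.32 for VIM. STAR, the cholesterol carrier placed in that list, went the other way and was higher in oocytes by 6.61 on the log2 scale. The endothelial marker VWF was also higher in oocytes, by 4.005, and HBA, an alpha-globin gene and the blood marker measured, differed by −1.52 without passing the test (FDR = 0.0101). All these tests were edgeR's quasi-likelihood test with the complex as a block and a threshold on the false discovery rate (FDR, Benjamini-Hochberg) of 0.01. FSHR, FOXL2 and CYP11A1 passed the count limit only through cumulus cells, which largely set the direction of their tests.

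Both receptors were detected in every library of both compartments, and both were higher in the oocyte than in its own cumulus cells in 19 of 19 complexes. BMPR1B in oocytes had a lowest, median and highest level of 161, 188 and 228 CPM. In cumulus cells the corresponding BMPR1B levels were 3.55, 14.3 and 64.3 CPM. The compartments did not overlap for BMPR1B, since the highest cumulus library lay below the lowest oocyte.

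In the fitted model BMPR1B was 8.53-fold higher in oocytes (95% interval 5.67 to 12.8, FDR = 6.79e-10). For comparison, 87.6% of the 14898 genes tested passed this threshold, 46.2% of the tested genes as higher and 41.4% as lower in oocytes, so passing it set neither receptor apart. Levels are relative to all RNA counted in a library. An oocyte library held 1 oocyte, whereas a cumulus library pooled the cells around it, and there fewer cells of a type and less RNA per cell cannot be told apart.

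KIT ranged from 195 to 314 CPM in oocytes, with a median of 281 CPM. In cumulus cells it ranged from 3.95 to 132 CPM, with a median of 37.4 CPM. The KIT compartments did not overlap either. KIT was 5.64-fold higher in oocytes (95% interval 3.64 to 8.72, FDR = 8.18e-08).

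**Figure D1:**
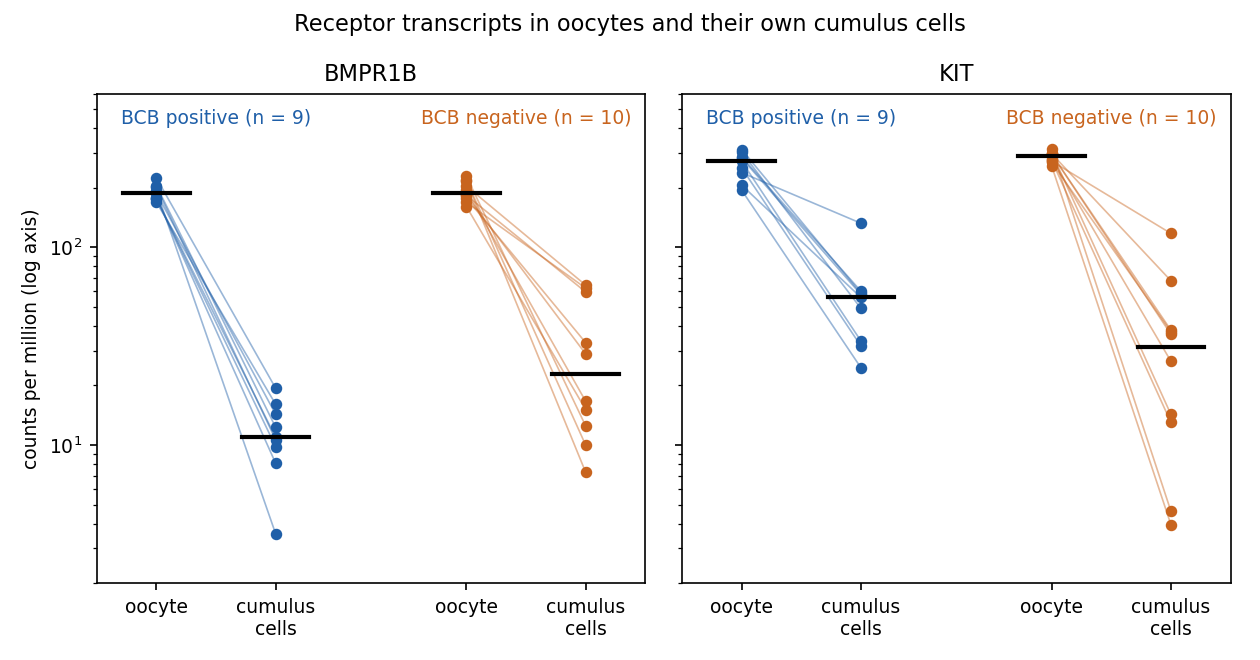
Level of BMPR1B and KIT in CPM (vertical log axis) in each oocyte and its own cumulus cells, with 9 BCB positive complexes in blue and 10 BCB negative complexes in orange. Points are libraries, thin lines join the 2 libraries of a complex and black bars are medians; oocytes sit between 161 and 314 CPM in both genes while cumulus libraries spread from 3.55 to 132 CPM.

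The size of the step between compartments varied from complex to complex. For BMPR1B the CPM of the oocyte was 2.72 to 54.2 times that of its cumulus cells, with a median of 13.2. For KIT it was 1.80 to 67.96 times, with a median of 7.77. Fitted within the classes, the BMPR1B difference was 3.93 on the log2 scale in BCB positive complexes and 2.28 in BCB negative ones, and the KIT difference was 2.18 and 2.87.

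This variation lay in the cumulus cells. BMPR1B had a coefficient of variation of 10.3% over the 19 oocytes and of 88.1% over the 19 cumulus libraries. KIT had one of 11.96% in oocytes and of 74.6% in cumulus cells. Counting error was largest in the shallow cumulus libraries: the smallest BMPR1B count was 11, in complex 68, where 9.97 CPM has an exact Poisson 95% interval of 4.98 to 17.8, and the smallest KIT count was 7, in complex 6, where 3.95 CPM has one of 1.59 to 8.14. These intervals cover counting error only.

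Since oocyte RNA carried into a cumulus tube would add to both genes, the ZP2 and ZP3 left in cumulus libraries were set beside them. Their summed level in a cumulus library was 0 to 1.46% of that in its own oocyte, with a median of 0.0149%. The same share of the oocyte's BMPR1B would make up less than 1% of the cumulus BMPR1B in 15 of 19 complexes, and at most 25.2%, in complex 68. For KIT it would make up less than 1% in 14 of 19 complexes and at most 9.0%, also in complex 68. Within the BCB negative class ZP2 and ZP3 summed to 0.259 to 65.3 CPM, highest in complexes 65, 66 and 68, and within the BCB positive class to 0 to 1.37 CPM. With complexes 66 and 68 and also 72, whose oocyte library held the most cumulus markers, left out, the difference between oocyte and cumulus cells was 3.01 for BMPR1B and 2.58 for KIT on the log2 scale, against 3.09 and 2.495 over all complexes.

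Whether receptor transcripts follow the growth state marked by BCB was asked first in the oocytes, and neither receptor passed the test there. BMPR1B had a lowest, median and highest level of 169, 188 and 224 CPM in the 9 BCB positive oocytes. In the 10 BCB negative oocytes they were 161, 189 and 228 CPM. The classes overlapped, with 7 of 10 BCB negative oocytes inside the BCB positive range in CPM and 6 of 10 in TMM-scaled CPM.

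The fitted BMPR1B difference, BCB positive over BCB negative, was −0.02 on the log2 scale (95% interval −0.20 to 0.15, FDR = 0.984). An exact two-sided permutation test of mean log2(CPM + 1), scaled by TMM, over the 92378 splits of the complexes gave p = 0.833. In the runs that held both classes BMPR1B was further below 0, at −0.17 in complexes 6 to 74 (FDR = 0.590; exact permutation p = 0.0462) and −0.18 in complexes 65 to 74 (FDR = 0.331; exact permutation p = 0.0595), and with the run as a covariate it was −0.17 (FDR = 0.479). The BCB negative oocytes of complexes 65 to 74 held 194, 216 and 218 CPM of BMPR1B and the positive ones 169 to 224 CPM. Of 12753 genes tested in oocytes 0 passed FDR 0.01 (0%), against 1 (0.00784%) with DESeq2, and 711 (5.58%) had an unadjusted edgeR p under 0.05.

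KIT had a lowest, median and highest level of 195, 272 and 312 CPM in BCB positive oocytes. In BCB negative oocytes they were 258, 288 and 314 CPM. The 4 lowest oocytes for KIT were BCB positive, and the upper ends of both classes met. The fitted difference was −0.13 (95% interval −0.31 to 0.06, FDR = 0.904; exact permutation p = 0.116), an interval that leaves room for KIT to be up to 1.24-fold lower or 1.04-fold higher in BCB positive oocytes.

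In cumulus cells BMPR1B was lower around BCB positive oocytes. The lowest, median and highest BMPR1B levels were 3.55, 10.9 and 19.4 CPM in the 9 BCB positive cumulus libraries. In the 10 BCB negative ones they were 7.27, 22.7 and 64.3 CPM. The classes overlapped: 5 BCB negative libraries, those of complexes 6, 86, 87, 88 and 89, lay above every BCB positive one, and the other 5 lay within the BCB positive range. On the TMM-scaled CPM that the test used, 8 of 10 BCB negative libraries lay above every BCB positive one.

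The fitted BMPR1B level was 3.68-fold lower in BCB positive cumulus cells (95% interval 2.18 to 6.22; log2 −1.88, SE 0.37, edgeR FDR = 0.00822). This was 1 of 69 genes called among 12313 tested (0.560%), of which 64 (0.520%) were lower and 5 (0.0406%) higher in BCB positive cumulus cells. The identifier of BMPR1B was named only by tables of the BCB comparison of these same cumulus libraries, so its measurement here is not independent evidence of a difference, and nothing is read from its call beside the share over all genes. DESeq2 also called BMPR1B (log2 −1.89, FDR = 1.91e-05), among 365 genes (2.96%). The exact permutation test of mean TMM-scaled log2(CPM + 1) over all 92378 splits gave p = 0.000379. Both results come from these same libraries, so they are not independent evidence either.

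The call sat close to the threshold. With each complex left out in turn the BMPR1B difference stayed between −2.001 and −1.67 on the log2 scale, and its FDR lay between 0.00573 and 0.0217. It passed 0.01 in 4 of the 19 fits, those without complex 66, 88, 89 or 90, and missed it in the other 15. With the log10 library total as a covariate the difference was −2.01 (FDR = 0.103), and without complexes 65, 66 and 68, whose cumulus libraries held the most ZP2 and ZP3, it was −2.17 (FDR = 0.0105).

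The BMPR1B difference was smaller within 1 run of complex numbers. In complexes 65 to 74 the BCB positive cumulus libraries held 3.55 to 19.4 CPM of BMPR1B (n = 6) and the BCB negative ones 7.27, 9.97 and 16.6 CPM. All 3 BCB negative libraries of that run lay inside the CPM range of the positive ones. On TMM-scaled CPM they held 10.4, 18.3 and 18.5 against 2.81 to 15.4 in the positive ones, so that those of complexes 66 and 68 lay above every positive library of the run. The difference there was −0.78 (FDR = 0.458), and the exact permutation test over 84 splits gave p = 0.143, with 0.0119 the smallest it can give. In complexes 6 to 24 the BCB negative library, of complex 6, held 64.3 CPM and the BCB positive ones 10.9, 12.3 and 14.3 CPM.

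In complexes 86 to 91, all BCB negative, BMPR1B ran from 12.5 to 62.1 CPM, and there class and run cannot be told apart. Over complexes 6 to 74 the difference was −1.81 (FDR = 0.0488; exact permutation p = 0.00979), and with the run as a covariate over all complexes it was −1.59 (FDR = 0.0700). The mitochondrial share also differed between the classes of cumulus libraries (exact permutation p = 0.000714), as did the log10 library total (exact permutation p = 0.00375). The summed ZP2 and ZP3, as mean log2(CPM + 1), was 0.40 in BCB positive and 2.46 in BCB negative cumulus libraries (exact permutation p = 0.00394). STAR, also higher in oocytes, differed by −1.70 on the log2 scale without passing 0.01 (FDR = 0.0419). The part of the mitochondrial share in the BMPR1B difference was not tested beyond the correlations given below, and that of STAR was not tested. The fit without complexes 65, 66 and 68, which held the most ZP2 and ZP3, is the one given above (−2.17, FDR = 0.0105), in which the call was missed.

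**Figure D2:**
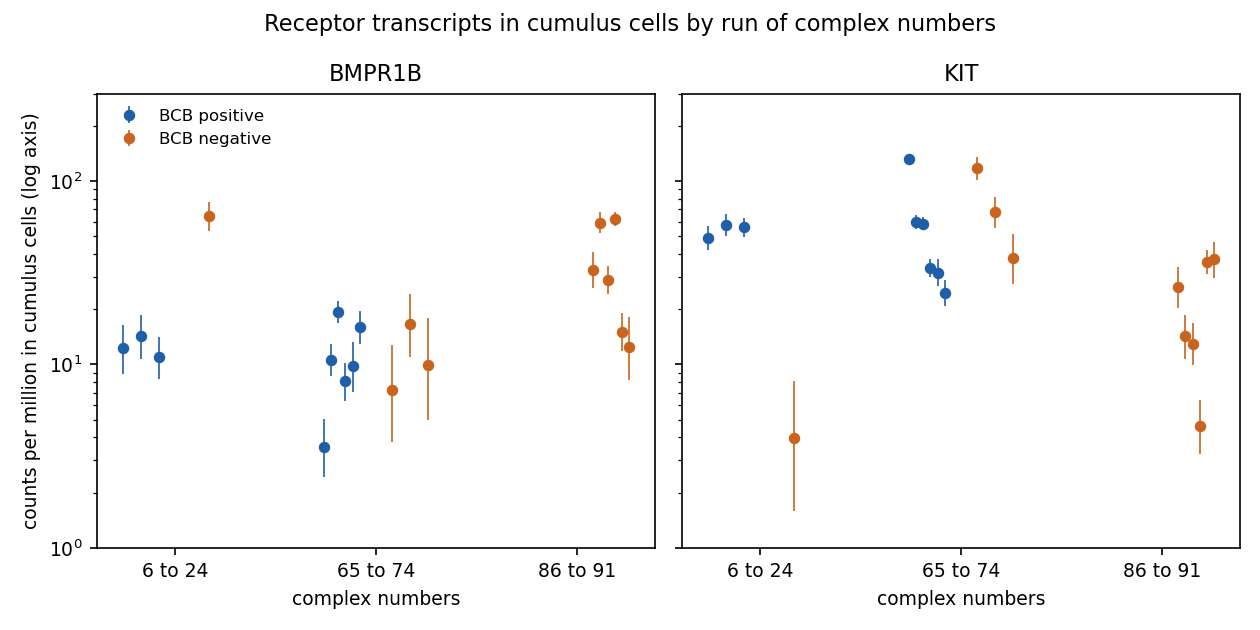
Level of BMPR1B and KIT in the 19 cumulus libraries in CPM (vertical log axis) by run of complex numbers, BCB positive in blue and BCB negative in orange. Points are libraries and bars are exact Poisson 95% intervals; BMPR1B reaches 64.3 CPM in complex 6 and 62.1 CPM in the run 86 to 91, and the classes overlap in complexes 65 to 74.

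KIT in cumulus cells did not pass the test between the BCB classes. It was 24.6 to 132 CPM in BCB positive cumulus libraries, with a median of 55.8 CPM. In BCB negative ones it was 3.95 to 118 CPM, with a median of 31.4 CPM. The 4 lowest libraries, of complexes 6, 87, 88 and 89, were BCB negative and the highest in CPM, of complex 69, was BCB positive. On the TMM-scaled CPM that the test used, the highest was BCB negative, complex 65 at 167 against 105 for complex 69, and the class means were 45.7 in BCB positive and 47.0 in BCB negative libraries.

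The fitted KIT difference was 0.03 on the log2 scale (95% interval −1.09 to 1.15, FDR = 0.987; exact permutation p = 0.361), so that changes of more than 2-fold either way lie inside the interval. Its sign depended on the complexes compared. It was −1.21 in complexes 65 to 74 (FDR = 0.282; exact permutation p = 0.0476), where the BCB negative libraries held 38.1, 67.7 and 118 CPM and the BCB positive ones 24.6 to 132 CPM. Without complexes 65, 66 and 68 it was 1.04 (FDR = 0.193).

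Whether the BCB difference itself differed between cumulus cells and oocytes was tested as an interaction. For BMPR1B the cumulus difference minus the oocyte difference was −1.76 on the log2 scale (SE 0.38), with p = 0.000111 before and FDR = 0.0587 after adjustment over the 10281 genes tested, of which 2 (0.0195%) passed 0.01. Without the complex as a block the same term was −1.90 (FDR = 0.00248), and with DESeq2 it was −1.73 (FDR = 0.00123), so the call depended on the model. The term holds the cumulus difference from whose tables BMPR1B was named, so it is not independent evidence either. For KIT the term was 0.59 (SE 0.57, FDR = 0.756).

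BMPR1B and KIT ran against each other across the cumulus libraries. The libraries with the 3 highest BMPR1B levels, of complexes 6, 89 and 87, held 3.95, 4.62 and 14.3 CPM of KIT, all under the KIT range of the BCB positive class. Pearson's r of TMM-scaled log2(CPM + 1) was −0.71 (permutation p = 0.00082, adjusted p = 0.00656 over the 8 relations computed), and Spearman's rho was −0.47 (permutation p = 0.0447, adjusted p = 0.148). The relations were chosen after the data were seen, and the adjustment does not cover that choice. Without complexes 6 and 69, the 2 farthest from the median of BMPR1B, r was −0.56 (permutation p = 0.0187).

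The relation was also computed within classes and runs, and the differences between these values were not tested. Within BCB negative cumulus libraries r was −0.86 (n = 10, permutation p = 0.00189) and within BCB positive ones −0.60 (n = 9, exact permutation p = 0.105). Within complexes 65 to 74 r was −0.11 (n = 9, exact permutation p = 0.79), and within complexes 86 to 91 it was −0.66 (n = 6, exact permutation p = 0.157). Neither run passed on its own, and the value in the largest run was the weakest. Both levels come from the same library and share its depth and scaling.

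**Figure D3:**
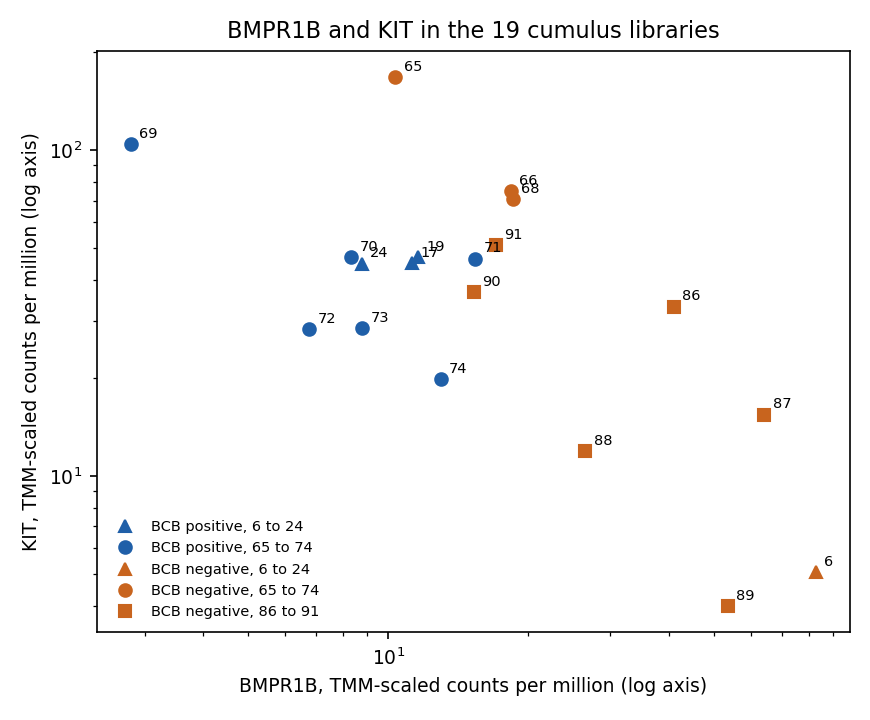
TMM-scaled CPM of KIT (vertical log axis) against BMPR1B (horizontal log axis) in the 19 cumulus libraries, labelled with their complex numbers, coloured by BCB class and with a symbol for each run of numbers. Complexes 6, 87, 88 and 89 lie at high BMPR1B and low KIT, whereas complex 86 holds 41.1 of BMPR1B and 33.1 of KIT. Within complexes 65 to 74 r is −0.11.

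In oocytes the relation had the other sign and did not pass: r between BMPR1B and KIT was 0.36 (adjusted p = 0.308, permutation test, n = 19). Within BCB positive oocytes it was 0.82 (n = 9, exact permutation p = 0.0076) and within BCB negative ones −0.18 (n = 10, permutation p = 0.605), and it was 0.77 within complexes 65 to 74 (n = 9, exact permutation p = 0.0114) and −0.66 within 86 to 91 (n = 6, exact permutation p = 0.136). These values within classes and runs were not adjusted, and the differences between them were not tested. Over all 19 oocytes rho was 0.32 (permutation p = 0.18) and r without complexes 65 and 90 was 0.45. No relation passed between the level of a receptor in the oocyte and in the cumulus cells of the same complex, with r = −0.07 for BMPR1B (permutation p = 0.762, adjusted p = 0.871, n = 19) and 0.03 for KIT (permutation p = 0.904, adjusted p = 0.904, n = 19).

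Cumulus BMPR1B had r = −0.37 with the log10 library total and 0.34 with the mitochondrial share, and neither passed (adjusted p = 0.308 for both, permutation test, n = 19). Within the classes its r with the mitochondrial share was 0.26 in BCB positive and −0.35 in BCB negative libraries. Its rho with the mitochondrial share was 0.51 (permutation p = 0.0289, adjusted p = 0.148, n = 19). For cumulus KIT the values were −0.20 with the total and 0.24 with the mitochondrial share, and neither passed (adjusted p = 0.558 and 0.512, permutation test). In the BCB negative class KIT had r = −0.64 with the total (n = 10, permutation p = 0.0485) and 0.60 with the mitochondrial share (n = 10, permutation p = 0.0649). In the BCB positive class these values for KIT had the other sign, 0.23 with the total (n = 9, exact permutation p = 0.582) and −0.14 with the mitochondrial share (n = 9, exact permutation p = 0.712).

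Genes whose levels varied most like those of the receptors were ranked over the 19 oocytes, where both receptors had their higher mean, among 4595 other genes with a symbol. The 3 closest to BMPR1B were PSMC3IP (r = 0.81), a factor of meiotic recombination, PSMB7 (r = 0.74), a proteasome subunit, and NEBL (r = 0.73), an actin-binding protein. The 3 closest to KIT were SACM1L (r = 0.73), a phosphoinositide phosphatase, TBC1D8B (r = 0.71) and SYNCRIP (r = 0.70), an RNA-binding protein. In cumulus cells, a ranking added afterwards among 4491 genes, BMPR1B was closest to MAGI1 (r = 0.92), a junction scaffold, and ARID5B (r = 0.89), and KIT to SCD (r = 0.81), a fatty acid desaturase. These are descriptions of 19 libraries that share depth and scaling. Part of the symbols, that of BMPR1B among them, came from tables of the BCB comparison of the cumulus libraries. The part of the BCB classes in these r was not tested.

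The pathway around the receptors was read from lists of known genes, of which those with a symbol are given. Symbols were known for 4934 identifiers, part of them from tables ordered by the BCB comparisons, so the counts below describe the genes named and no share of a pathway. Among other receptors of the family, AMHR2, the receptor of anti-Müllerian hormone, was lower in oocytes (log2 −4.82) and ENG, the co-receptor endoglin, was higher (1.66), a call that ENG missed in BCB negative complexes alone (1.47, FDR = 0.0207). Medians in oocytes and cumulus cells were 0.174 and 5.45 CPM for AMHR2 and 3.48 and 0.767 CPM for ENG. Each passed the count limit only through the compartment where it was high, which largely set the direction of its call. They were 2 of the 11 genes listed.

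Of the other ligands of the family, 3 of 12 were measured. BMP7 was higher in oocytes (log2 5.61), with medians of 5.23 CPM there and 0 CPM in cumulus cells. It passed the count limit only through oocytes, which largely set the direction of its call. In 14 of 19 cumulus libraries its count was 0 and the highest was 2, so the size of the difference is poorly determined. INHA and INHBA, the inhibin alpha and beta A subunits made by granulosa cells, were lower in oocytes (−9.38 and −8.43). Without the complex as a block INHA was −5.94 and INHBA −6.10.

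Of the SMAD transducers, SMAD4, the partner shared by both branches of the family, was lower in oocytes (−3.18), and SMAD9 differed by 0.89 without passing (FDR = 0.0536). Of 6 measured inhibitors of BMP and activin signals, 1 was higher and 3 were lower in oocytes, against 46.2% higher and 41.4% lower over all genes tested. SFRP1, a secreted Wnt antagonist, was the higher one (3.29), and FST, which binds activin, and SMAD6, an inhibitory SMAD, were the lowest (−9.57 and −2.14). FST was −6.34 without the block.

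Genes known as targets of GDF9 and BMP15 in cumulus cells were lower in oocytes in 3 of 3 cases measured, where 41.4% of all genes tested were lower, with −5.74 for ID2, a BMP-responsive inhibitor of helix-loop-helix factors, and −5.73 for PFKP, a glycolytic enzyme. Of the proprotein convertases that cut such ligands, FURIN was higher in oocytes (2.68) and PCSK7 lower (−0.97). Of 4 genes that carry the KIT signal onward, the adaptor SHC1 (2.71) and the kinase PDPK1 (1.84) were higher in oocytes, and the adaptor GRB2 was lower (−0.38). AKT1 differed by 0.54 without passing (FDR = 0.0139). Over all genes tested 46.2% were higher and 41.4% lower, so nothing is read from this count. The GRB2 difference did not pass in BCB negative complexes alone (−0.13, FDR = 0.397) or without a count filter (−0.23, FDR = 0.0547), and it was 0.06 with scaling by library totals alone, which moved the median of all genes by 0.43.

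Between BCB classes in oocytes none of these genes passed FDR 0.01 with edgeR. In cumulus cells 1 of the 6 inhibitors did and no gene of the other lists, where 0.560% of all 12313 genes tested were called. That inhibitor was SMAD6, which blocks signals from BMP type I receptors. It was 16.96, 45.8 and 84.6 CPM at lowest, median and highest in BCB positive cumulus libraries. In BCB negative ones it was 44.2, 94.2 and 151 CPM. The upper 7 of the 10 BCB negative libraries lay above every BCB positive one.

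The fitted SMAD6 difference was −1.70 on the log2 scale (SE 0.33, FDR = 0.00844). In complexes 65 to 74 it was −1.86 (FDR = 0.0128), and with the log10 library total as a covariate −0.70 (FDR = 0.520). With each complex left out it ran from −1.86 to −1.59, and its FDR from 0.00164 to 0.0215, passing 0.01 in 4 of 19 fits, those without complex 74, 88, 89 or 90.

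Another 3 inhibitors, chosen for mention after their values were seen, lay between FDR 0.01 and 0.05 in cumulus cells: SMAD7 (−2.15, FDR = 0.0114), BAMBI (−3.07, FDR = 0.0171) and SFRP1 (−1.96, FDR = 0.0226). Their levels were low, with BCB positive medians of 1.64, 3.18 and 1.71 CPM. The BCB negative medians were 3.89, 6.66 and 4.81 CPM, and the highest BCB negative libraries held 16.0, 110 and 20.8 CPM. With each complex left out the differences ran from −2.48 to −1.90, −3.31 to −2.44 and −2.18 to −1.55. The other 2 inhibitors measured were GREM1 (−0.81, FDR = 0.400) and FST, which had the other sign (0.21, FDR = 0.562). At FDR 0.05, 2.92% of all genes tested in cumulus cells were called. Inhibitors were measured for 6 of the 13 listed, and since part of the symbols came from tables ordered by the BCB comparison of these same libraries, the values of these 4 inhibitors are not independent evidence of a direction. The 4 KIT transducers differed by 0.12 (GRB2) to 0.92 (AKT1) on the log2 scale and the 3 targets of GDF9 and BMP15 by 0.28 (ID2) to 0.61 (NPR2), and none passed FDR 0.01 with edgeR in cumulus cells.

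**Figure D4:**
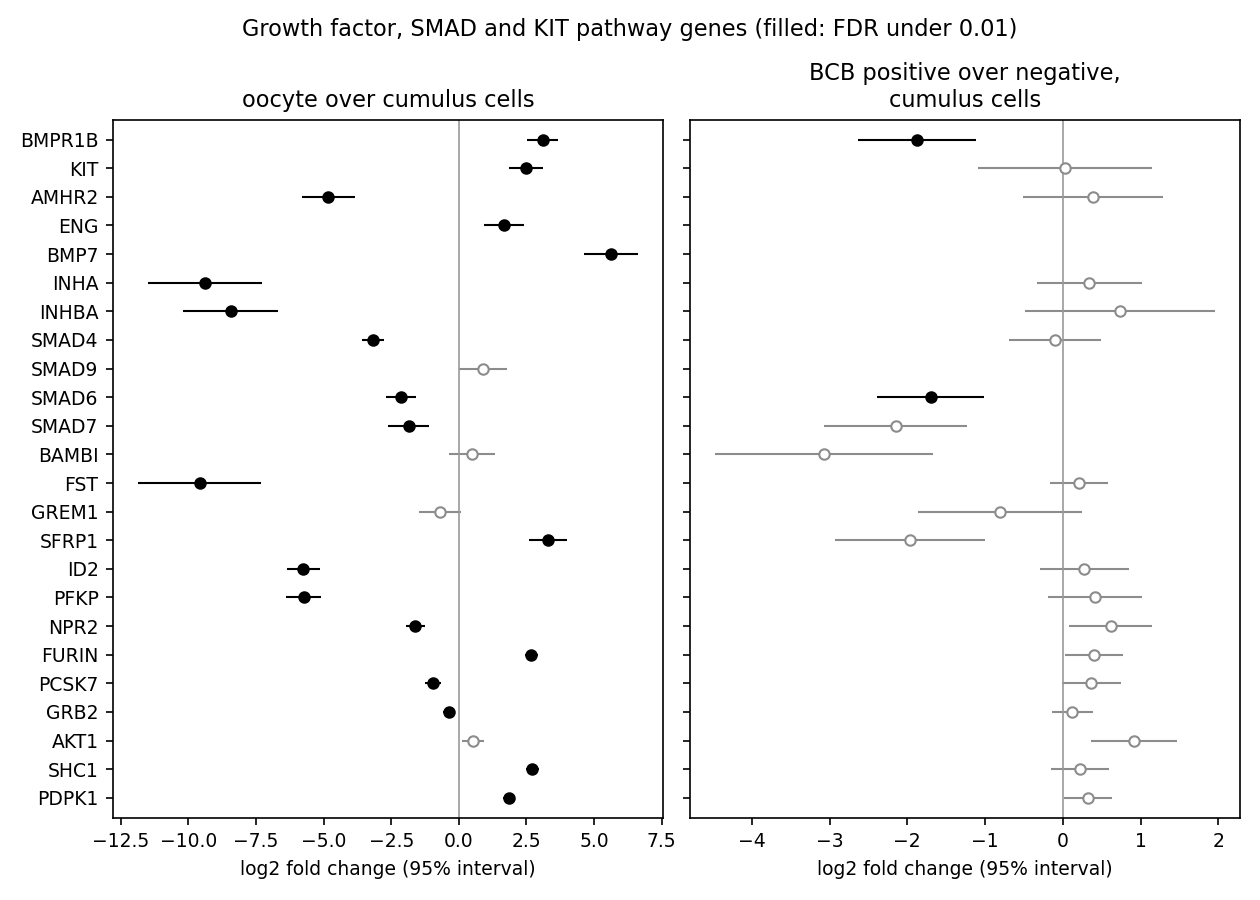
Log2 fold changes with 95% intervals for the receptors and pathway genes, oocyte over cumulus cells at left and BCB positive over BCB negative cumulus cells at right, with filled points for FDR under 0.01 in edgeR's quasi-likelihood test. Genes without a point were below the count limit in that comparison; at right BMPR1B (−1.88) and SMAD6 (−1.70) are the filled points.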

How the data were processed

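Raw counts per Ensembl gene (release 98) were deposited by the authors, who trimmed paired-end reads, aligned them to ARS-UCD1.2 with HISAT2 2.1.0, removed duplicates and counted with featureCounts 1.6.0. Libraries were made from full-length amplified cDNA without strand information and without molecular identifiers. Strand was therefore unknown, and genes that overlap could share reads.

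Groups came from the sample labels. Genes with more than 2 CPM in at least 9 libraries were kept (12753 in oocytes, 12313 in cumulus cells, both receptors in each), scaled by TMM and tested with edgeR 4.0.16 (robust quasi-likelihood, R 4.3.3) at FDR 0.01; DESeq2 1.42.0 was an alternative. The complex number was a block between compartments, since each oocyte was paired with its own cumulus cells. Correlations used 100000 permutations (every permutation for groups under 10) in scipy 1.17.1. Fits were also run on simulated counts with the same spread for every gene and no effect of the complex. That run could not test the pairing of libraries. The receptors, the other genes of the set and the pathway lists were chosen with earlier results of these data known. Named list genes were those past FDR 0.01 between BCB classes, the 2 largest rises and falls of each list between compartments, and all markers. The 3 most alike genes for each receptor were ranked by Pearson's r. Symbols for 4934 identifiers (17.9%) came from the gene tables published with the study. The relations between ligands and receptors that had been planned involve genes not analysed here and were not run. Relations of BMPR1B and KIT were added after seeing the data.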

Additional observations from a re-analysis of the deposited data

Results flagged for a closer look

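In BCB positive cumulus cells KIT stood at 132 CPM in complex 69, with the next library at 60.0 CPM; the gap was 0.671 of the range of the 9 libraries. The same library held the lowest BMPR1B level, 3.55 CPM. Without complex 69 the fitted KIT difference between BCB classes was −0.23 and that of BMPR1B −1.75 on the log2 scale. In BCB positive oocytes SMAD6 stood at 29.2 CPM in complex 71, with the next at 21.4 CPM, a gap of 0.605 of the range. Chance sets apart about 1 group in 20, and 2 of 12 groups were found here.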

How the results depend on the processing

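Both receptors stayed higher in oocytes and past the threshold under every alternative run, with log2 differences from 2.28 to 3.93 for BMPR1B and from 1.89 to 2.94 for KIT. Leaving out the replicate block gave 13150 calls between compartments, with 2.67 for BMPR1B, 2.14 for KIT, −5.94 for INHA, −6.10 for INHBA and −6.34 for FST; for the interaction it gave 54 calls in place of 2 and −1.90 for BMPR1B, which then passed. In cumulus cells BMPR1B kept its sign throughout and missed FDR 0.01 without a count filter (−1.77, FDR = 0.0136), with the run (−1.59) or the log10 total (−2.01) as a covariate, in complexes 65 to 74 (−0.78) or 6 to 74 (−1.81), and without complexes 65, 66 and 68 (−2.17). The interaction of BMPR1B passed with DESeq2 (−1.73). Cumulus KIT changed sign with DESeq2 (−0.0501), with the run as a covariate (−0.61), in complexes 65 to 74 (−1.21) and in 6 to 74 (−0.80), where its interaction was −0.39 too. GRB2 between compartments was 0.0603 with library totals alone, a scaling that moved the median of all genes by 0.43. The cause was not tested in any of these.

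The calls between BCB classes in cumulus cells numbered 69, against 360 at FDR 0.05, 365 with DESeq2, 164 without a filter, 216 with the likelihood-ratio test without TMM and DESeq2, 115 with the run and 2 with the log10 total as a covariate, 139 in complexes 6 to 74 and 2 without complexes 65, 66 and 68. Library totals alone gave 1732, of which 1629 were higher and 103 lower in BCB positive, against 5 and 64 with TMM. That scaling moved the median of all genes by 0.47, and BMPR1B was −1.43 and KIT 0.67 there. The interaction had 5 calls at FDR 0.05, 81 with DESeq2, 659 with library totals, 1 with the stricter filter and 13 in complexes 6 to 74. Oocytes had 0 calls under every alternative but DESeq2, which gave 1.

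With each complex left out, calls in cumulus cells ranged from 6 (without 24) to 160 (without 89), BMPR1B from −2.001 to −1.67 and KIT from −0.23 to 0.52. In oocytes calls ranged from 0 to 0, BMPR1B from −0.0534 to 0.00857 and KIT from −0.16 to −0.08. The correlation of KIT with BMPR1B in cumulus cells ranged from −0.74 to −0.62, and from −0.86 to −0.48 under other scalings. In oocytes BMPR1B was −0.17 with the run as a covariate and in complexes 6 to 74, and −0.18 in complexes 65 to 74. Depth limited the cumulus values, where the smallest counts were 7 for KIT and 11 for BMPR1B.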
